A study of Homo sapiens with 10 samples.

Results

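Isolated H3K27ac peaks were examined in Rh30 cells during degradation of the fusion protein PAX3-FOXO1. A peak was called isolated when the nearest other peak on the same chromosome lay more than 100000 bases away, edge to edge, and when it lay on an autosome. The rule uses positions and no measured level. It kept 1948 of the 42067 peaks in the deposited table, or 4.73% of the 41170 autosomal peaks. A further 139 peaks on the sex chromosomes passed the same distance and were left out.

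Rh30 is an established human alveolar rhabdomyosarcoma line. Here it carries PAX3-FOXO1-FKBP, the fusion joined to a degron, and the control cells carry the same protein. The compound dTAG47 links the FKBP part to the cell's protein disposal machinery. The groups are DMSO, the solvent, and dTAG47 at 500 nM after 2 h, 4 h and 24 h. Each of these 4 groups has 2 H3K27ac ChIP-seq libraries. How long the DMSO cells were kept is not labelled, and one DMSO group is set against every time, so time in culture and time of treatment cannot be told apart. The level of the fusion protein itself was not measured in these data, and 2 input libraries of DMSO cells were not analysed here. No label says whether the 2 libraries of a group came from separate cultures, so p-values measure the spread between libraries, which may be technical.

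Acetylation of lysine 27 on histone H3 marks active promoters and enhancers. It is written by the acetyltransferases p300 and CBP and removed by histone deacetylases. Active enhancers often lie in clusters, near promoters or near one another, and PAX3-FOXO1 is a transcription factor known to bind distal enhancers and to keep them acetylated in rhabdomyosarcoma. The deposited table names no genes, and no annotation of its build, hg19, was at hand, so peaks are named by position and no promoter, gene or sequence is assigned to them.

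The 8 libraries held between 3540104 and 5001652 reads in peaks. Levels are given as counts per 1000000 reads in peaks (CPM), with library totals scaled by edgeR's trimmed mean of M-values, and changes as log2 ratios. A change was called at a Benjamini-Hochberg adjusted p under 0.05 from edgeR's quasi-likelihood test, fitted and adjusted over all 41791 peaks that passed a filter on low counts. Of the isolated peaks 1930 passed this filter and 18 did not. A change common to all peaks cannot be seen after this scaling. The edgeR test takes the spread largely from all peaks together (median prior degrees of freedom 182). A peak's own libraries thus weigh little in the spread used for its p-value.

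Isolated peaks were spread over all 22 autosomes, but unevenly. They made up 12.6% of the peaks on chromosome 13, 10.9% on chromosome 18, 9.83% on chromosome 4, 8.48% on chromosome 8 and 8.21% on chromosome 5. On chromosomes 17, 19 and 22 the shares were 1.19%, 1.03% and 0.801%. Chromosomes 13, 18 and 4 are known as gene-poor, and chromosomes 17, 19 and 22 as gene-rich. Gene density was not measured here.

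**Figure D1:**
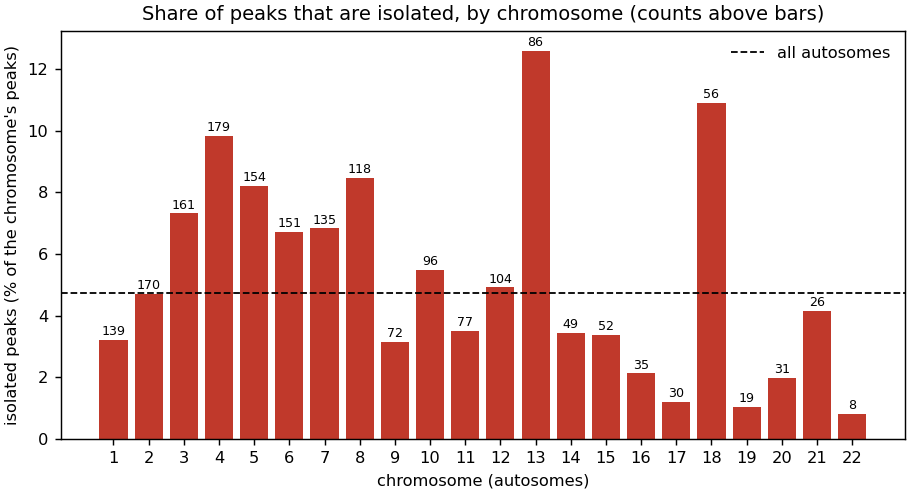
Isolated peaks as a percentage of all H3K27ac peaks on each autosome, with the number of isolated peaks above each bar and the 4.73% of all autosomes as a dashed line. Chromosomes 13, 18 and 4 have the tallest bars, and chromosome 22, with 8 isolated peaks, the lowest.

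The median distance from an isolated peak to its nearest neighbour was 158 kb, with quartiles of 120.8 and 239.5 kb. In 21 peaks it was above 1 Mb. The neighbourhood was sparse but rarely empty. A median of 15 other peaks lay within 1 Mb of an isolated peak, against 50 for the other peaks, and 356 isolated peaks had 30 or more. The nearest neighbour was itself isolated for 790 of the 1948 peaks, or 40.6%. At the limit, the 2 peaks just inside lay 100045 and 100085 bases from their neighbours and averaged 4.15 and 4.43 CPM. The 2 just outside, at 99959 and 99890 bases, averaged 4.85 and 7.51 CPM.

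The 5 peaks farthest from any other were chr9:41954554-41954954, chr13:63538487-63538887, chr3:116573-116973, chr10:58120656-58121056 and chr1:104068394-104068794. Their nearest neighbours lay 2920, 2566, 2008, 1906 and 1818 kb away. The chromosome 10 peak kept 21.2 and 20.7 CPM at 24 h, against 19.9 and 22.7 CPM in DMSO, so its groups overlapped. The chromosome 1 peak was as strong, at 20.8 and 22.5 CPM at 24 h and 24.5 and 16.8 CPM in DMSO. The other 3 were weak, between 2.50 and 7.10 CPM in every library. Among these 5, a change was called once. The chromosome 3 peak fell at 4 h to 2.73 and 3.23 CPM, against 6.83 and 7.10 CPM in DMSO, a log2 change of -1.21 ± 0.36 (SE; edgeR adjusted p = 0.0409).

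Isolated peaks were mostly weaker than the rest, with a smaller group of strong ones. Their mean over the 8 libraries had a median of 7.79 CPM, with quartiles of 5.13 and 22.7 CPM, against 13.9 CPM with quartiles of 7.60 and 30.5 CPM for the other 40119 peaks. Under 8 CPM lay 50.9% of the isolated peaks and 27.2% of the others. Between 8 and 16 CPM the order turned, with 17.2% of the isolated peaks and 27.9% of the others. At 16 CPM or more there were 620 isolated peaks, or 31.8%, against 44.9% of the others. Along the scale the isolated peaks had a tall step of 22.1% between log2 values of 2.0 and 2.5, a dip to 5.95% between 3.5 and 4.0, and a second rise to 8.26% between 5.0 and 5.5. The other peaks had 1 broad hump in the same steps.

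**Figure D2:**
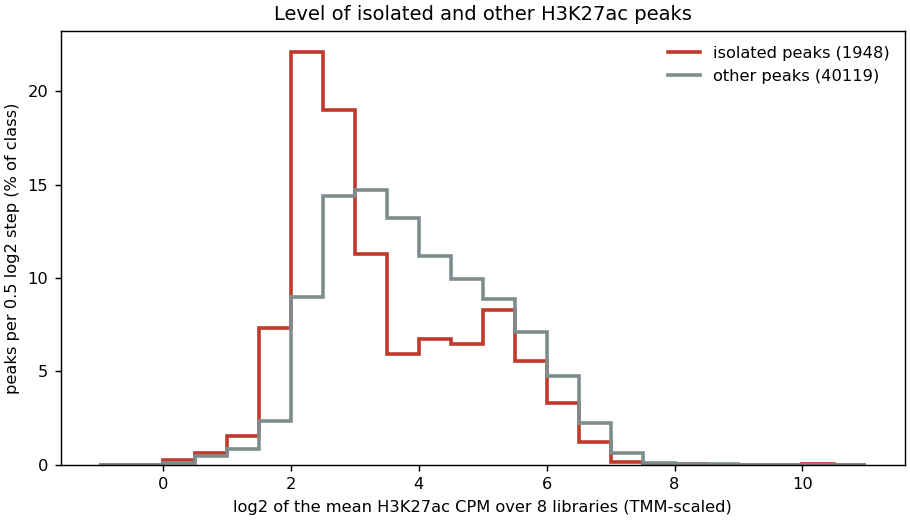
Distribution of the mean H3K27ac level (log2 CPM over 8 libraries) in isolated and in other peaks, as a percentage of each class per 0.5 log2 step. The isolated peaks pile up below a log2 value of 3 and form a second, lower hump near 5, where the other peaks have a single hump.

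Farther peaks tended to be weaker, though not at each step. The median level was 9.49 CPM in the 570 peaks between 100 and 125 kb from their neighbour and 9.52 CPM in the 318 between 125 and 150 kb. It was 7.09 CPM in the 398 between 150 and 200 kb and 7.22 CPM in the 334 between 200 and 300 kb. In the 184 between 300 and 500 kb it was 6.38 CPM, and in the 144 past 500 kb 6.06 CPM. In the same order, the share at 16 CPM or more was 38.6%, 37.1%, 28.1%, 26.3%, 26.1% and 23.6%. These are descriptions over peaks that share the same 8 libraries. Weak peaks carry few reads. The median isolated peak had 29 to 40 reads per library and the median other peak 49 to 70. The spread between libraries was alike at matched levels. With all peaks split into 4 equal classes by level, the median SD within groups was 0.282 on the log2 scale for isolated and 0.276 for other peaks in the lowest class, and 0.104 and 0.097 in the highest. Enrichment over input was not measured, so how many of the weak isolated windows stand above background was not tested.

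Of the strongest isolated peaks, 3 behaved unlike the rest between libraries of the same group. The strongest of all was chr1:121484945-121485345, with a mean of 1183 CPM. It had 1171 and 1272 CPM in DMSO, 1322 and 850 CPM at 2 h, 1297 and 1013 CPM at 4 h, and 1400 and 1140 CPM at 24 h. Library A was the higher one at each dTAG47 time and the lower one in DMSO, so the groups overlapped widely. The peaks chr6:58778990-58779390, with a mean of 274 CPM, and chr9:66970997-66971397, with a mean of 162 CPM, moved the same way. At 2 h the first had 316 and 184 CPM, against 280 and 302 CPM in DMSO. The second had 194 and 116 CPM at 2 h, against 155 and 188 CPM in DMSO. No change of these 3 peaks against DMSO was called by edgeR or DESeq2 at any time.

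The SD within groups was 0.28 to 0.35 on the log2 scale for these 3 peaks, and 0.04 to 0.09 for the other 12 of the 15 strongest. The chromosome 1 peak is the last before a stretch of 21050260 bases with no peak, and the chromosome 6 peak the last before a stretch of 5142011 bases. The chromosome 9 peak lies 515202 bases from a stretch of 21013266 bases. These were the longest peakless stretches on their chromosomes. They span the centromeres, whose repeats are known to be hard for short reads to align to, and the part of this in the levels was not tested. The 3 peaks were singled out after their values were seen.

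**Figure D3:**
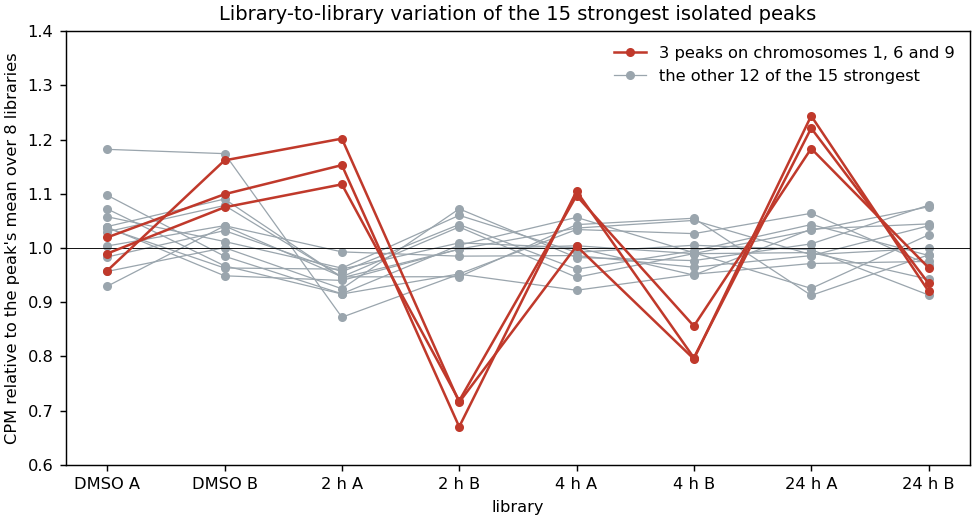
CPM in each library relative to the peak's own mean over 8 libraries, for the 15 strongest isolated peaks. The 3 peaks on chromosomes 1, 6 and 9 (red) split libraries A and B at each dTAG47 time, while the other 12 (grey) stay close together.

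Other strong isolated peaks were steady. The peak chr6:155054709-155055109 had 202 and 184 CPM in DMSO, 183 and 194 CPM at 2 h, 202 and 204 CPM at 4 h, and 192 and 194 CPM at 24 h. Each dTAG47 group overlapped DMSO, though both 4 h libraries lay above those at 2 h and 24 h. The peak's log2 change at 24 h over DMSO was -0.00 ± 0.07 (SE). The peak chr20:47662821-47663221 had 160 and 152 CPM at 24 h, against 167 and 176 CPM in DMSO, which did not reach the threshold (log2 change -0.14 ± 0.07, edgeR adjusted p = 0.229). One strong peak did change early. The peak chr20:7999996-8000396, named after its values were seen, had 123 and 122 CPM in DMSO, 90.5 and 98.8 CPM at 2 h, 95.7 and 98.8 CPM at 4 h, and 101 CPM in both libraries at 24 h. Every dTAG47 library lay below both DMSO libraries. It fell at 2 h by 0.36 on the log2 scale (SE 0.08, edgeR adjusted p = 0.0035), with log2 changes of -0.33 at 4 h (adjusted p = 0.00757) and -0.28 at 24 h (adjusted p = 0.0109). DESeq2 did not call it at any of the 3 times, with adjusted p of 0.496, 0.464 and 0.318.

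The reads held by isolated peaks as a whole changed little. In the 2 h libraries they took 3.55% and 3.48% of the reads, in the 4 h libraries 3.56% and 3.52%, and in the 24 h libraries 3.63% and 3.58%, against 3.63% and 3.64% in DMSO. Without the 3 unstable peaks, a choice made after seeing the data, the 2 h libraries had shares of 3.369% and 3.368%, the 4 h libraries 3.381% and 3.385%, and the 24 h libraries 3.439% and 3.429%, against 3.466% and 3.464% in DMSO. Each dTAG47 library then lay below both DMSO libraries. An exact two-sided permutation test of 2 libraries against 2 cannot go below p = 0.333, so this difference cannot pass the threshold.

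At 2 h of dTAG47 the calls among isolated peaks were few and almost all losses. H3K27ac was lower at 12 of 1930 isolated peaks (0.622%), where 1.03% of all tested peaks were called lower. It was higher at 1 peak (0.0518%), where 0.194% of all tested peaks were called higher. The called losses had a median log2 change of -1.10, and 9 of the 12 averaged under 8 CPM. The median change over all tested isolated peaks was -0.039, against 0.005 over all tested peaks. At an unadjusted p under 0.05 there were 155 lower and 32 higher isolated peaks, beside 6.42% and 4.71% of all tested peaks. The DESeq2 test called 0 lower and 0 higher of the 914 isolated peaks it gave an adjusted p, where it called 0.0833% and 0.0% of all such peaks. With library A or B of DMSO left out there were 2 and 2 losses and 1 and 0 gains, and with library A or B of the 2 h group left out 4 and 3 losses and 1 and 0 gains.

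The early losses were mostly weak peaks with log2 changes below -1. The peak chr2:216644579-216644979 had 16 and 14 reads at 2 h (4.40 and 2.99 CPM), against 40 and 27 reads in DMSO (11.4 and 7.67 CPM). Its log2 change was -1.39 ± 0.31 (SE; edgeR adjusted p = 0.00366). The groups did not overlap, which the choice of named peaks required. It was also called at 4 h (log2 change -1.49) and 24 h (-1.95). Without DMSO library A the adjusted p was 0.288 at 2 h and 0.177 at 4 h, and without 2 h library B it was 0.239 at 2 h. Some of the losses at 2 h were not called later. The peak chr8:112475839-112476239 had 2.75 and 3.41 CPM at 2 h, against 8.26 and 6.53 CPM in DMSO (log2 change -1.23 ± 0.34, edgeR adjusted p = 0.0354). At 24 h it had 4.75 and 4.78 CPM, between the values at 2 h and in DMSO, with a log2 change of -0.63 (adjusted p = 0.197). The peak chr2:147336311-147336711 went the same way, at -1.10 (adjusted p = 0.0223) at 2 h and -0.47 (adjusted p = 0.283) at 24 h. The single gain was at a strong peak, chr2:48010285-48010685, with 75.1 and 83.2 CPM at 2 h, against 59.5 and 65.9 CPM in DMSO (log2 change 0.34 ± 0.10, edgeR adjusted p = 0.0415). At 4 h it overlapped DMSO again, with 71.4 and 61.8 CPM. All 10 named losses at 2 h and the gain lost the call without some single library, with edgeR adjusted p of up to 0.707 for the losses and 0.463 for the gain.

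At 4 h the losses were more numerous and gains remained rare. H3K27ac was lower at 36 isolated peaks (1.87%), beside 1.67% of all tested peaks, and higher at 3 (0.155%), beside 0.567%. The losses ran between log2 changes of -1.88 and -0.33 with a median of -1.17, and 23 of them averaged under 8 CPM. The median change was -0.043 over the isolated and 0.004 over all tested peaks. At an unadjusted p under 0.05, 166 isolated peaks were lower and 64 higher, beside 7.18% and 5.88% of all tested peaks. DESeq2 called 2 lower and 0 higher of 1525, beside 0.195% and 0.0104%. Without DMSO library A or B, 14 and 11 losses and 2 and 1 gains were called, and 18 and 12 losses and 0 gains each without A or B of 4 h.

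Both peaks that DESeq2 called at 4 h had more reads than most of the losses. The peak chr8:33184397-33184797 is described with the changes at 24 h. The peak chr14:88459340-88459740, named after its values were seen, had 23.3 and 21.0 CPM in DMSO, 16.5 and 14.9 CPM at 2 h, 9.54 and 10.7 CPM at 4 h, and 13.3 and 13.6 CPM at 24 h. Its lowest libraries were those at 4 h. The log2 change against DMSO was -1.13 ± 0.20 (SE) at 4 h (edgeR adjusted p = 3.1e-05, DESeq2 adjusted p = 0.0467). At 24 h it was -0.72 ± 0.18 (edgeR adjusted p = 0.00284, DESeq2 adjusted p = 0.244). Between times, edgeR called neither 4 h over 2 h (-0.62 ± 0.21, adjusted p = 0.56) nor 24 h over 4 h (0.41 ± 0.21, adjusted p = 0.386). Among well-covered losses at 4 h, chr3:193110139-193110539 had 26.4 and 27.3 CPM, against 41.8 and 41.2 CPM in DMSO. It fell by 0.63 on the log2 scale (SE 0.14, edgeR adjusted p = 0.00151). The peak chr6:13814399-13814799 had 34.4 and 33.5 CPM at 4 h, against 49.0 and 47.4 CPM in DMSO (log2 change -0.51, adjusted p = 0.00701), and 37.6 and 41.4 CPM at 24 h (log2 change -0.29, adjusted p = 0.103). These 2 were also named after their values were seen, and DESeq2 called neither.

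The 3 gains at 4 h were all weak peaks. The peak chr5:83820849-83821249 had 22 and 25 reads at 4 h (6.0 and 6.20 CPM), against 5 and 11 reads in DMSO (1.42 and 3.13 CPM), a log2 change of 1.41 ± 0.39 (edgeR adjusted p = 0.0279). It was called again at 24 h, with a log2 change of 1.32 (adjusted p = 0.0154). The peaks chr3:189206049-189206449 (log2 change 1.39, adjusted p = 0.028) and chr12:28493936-28494336 (1.29, adjusted p = 0.0479) were not called at 24 h, where their log2 changes were 0.90 and 0.57. None of the 3 calls at 4 h held when either 4 h library was left out, with edgeR adjusted p of 0.0695 to 0.302. Of the 10 named losses at 4 h, 9 lost the call without some single library (adjusted p of up to 0.391), and that on chromosome 8 kept it.

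At 24 h most of the calls were again losses. H3K27ac was lower at 84 isolated peaks (4.35%), beside 4.88% of all tested peaks, and higher at 18 (0.933%), beside 3.46%. Losses were 82.4% of the isolated calls and 57.8% of the calls among other peaks. This difference was not tested, and it was smaller at an unadjusted p under 0.05, where losses were 62.2% of 201 lower and 122 higher isolated peaks and 52.8% among other peaks (11.2% and 9.83% of all tested peaks were lower and higher). The median change over all isolated peaks was 0.001, as it was over all tested peaks. This equality did not hold within 4 equal classes by level. From the lowest class to the highest, the medians were 0.05, -0.046, 0.0 and -0.029 for isolated peaks. Those of the other peaks were 0.076, 0.022, 0.006 and -0.032. Under scaling that follows abundance, the median was -0.023 over all isolated and 0.002 over all other peaks. These differences were not tested. DESeq2 called 6 lower and 1 higher of 1619, beside 0.996% and 0.236%. Without DMSO library A or B, 45 and 43 losses and 8 and 12 gains were called, and 55 and 45 losses and 10 and 13 gains without A or B of 24 h.

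Split by level, the share of gains was lower than among the other peaks in each class, a difference that was not tested. In the lowest of 4 equal classes, 7 of 931 isolated peaks were higher at 24 h (0.752%), against 3.04% of the other peaks in that class. In the second class it was 1.45% against 3.67%, in the third 1.09% against 5.04%, and in the highest class 0.787% against 2.55%. Losses, from the lowest class to the highest, were 4.30%, 5.81%, 4.01% and 3.41% of the isolated peaks. Among the other peaks they were 3.04%, 5.49%, 5.95% and 5.04%.

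**Figure D4:**
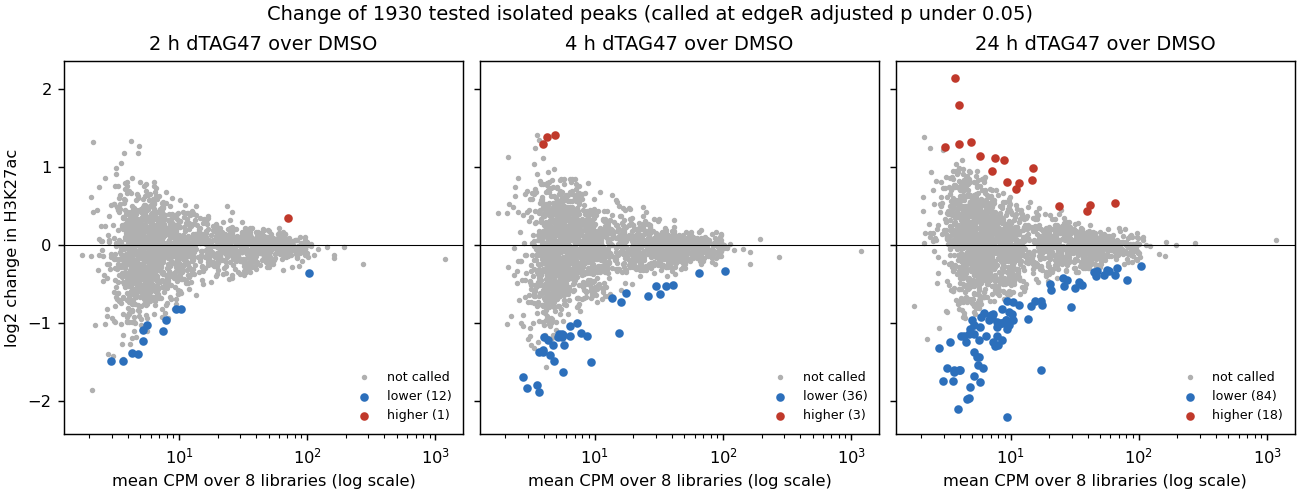
Log2 change in H3K27ac of the 1930 tested isolated peaks against their mean level (log scale) at 2 h, 4 h and 24 h of dTAG47 over DMSO, with called losses in blue and called gains in red. Losses number 12, 36 and 84 and gains 1, 3 and 18. The largest changes are at levels under 10 CPM, where standard errors are larger.

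The most marked loss was chr8:33184397-33184797, whose nearest neighbour lay 145.3 kb away. It had 18.8 and 16.5 CPM in DMSO, 9.36 and 10.5 CPM at 2 h, 6.54 and 5.96 CPM at 4 h, and 4.36 and 3.18 CPM at 24 h. Both libraries of each time lay below both libraries of the time before. Between times, edgeR did not call 4 h over 2 h (log2 change -0.67 ± 0.26, adjusted p = 0.607) or 24 h over 4 h (-0.71 ± 0.32, adjusted p = 0.296). It called 24 h over 2 h (-1.38 ± 0.28, adjusted p = 0.000459). Against DMSO, the 2 h libraries differed by a log2 change of -0.82 ± 0.21 (SE; edgeR adjusted p = 0.0202), the 4 h libraries by -1.49 ± 0.24 (2.2e-06) and the 24 h libraries by -2.20 ± 0.25 (2.12e-12). DESeq2 called it at 4 h (adjusted p = 0.0249) and at 24 h (7.64e-06). The calls at 4 h and 24 h held without any one library, while that at 2 h was lost without each of the 4 in turn (adjusted p of 0.0972 to 0.284).

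A late loss was seen at chr1:224970135-224970535. It had 24.8 and 21.0 CPM in DMSO, 20.6 and 21.5 CPM at 2 h, 18.5 and 17.6 CPM at 4 h, and 9.31 and 5.46 CPM at 24 h. The values at 2 h overlapped DMSO and those at 24 h stood well below. The log2 change was -1.60 ± 0.20 at 24 h (edgeR adjusted p = 1.66e-10, DESeq2 adjusted p = 2.98e-05), against -0.34 at 4 h (edgeR adjusted p = 0.392). The difference between the times was called by edgeR, at -1.26 ± 0.21 for 24 h over 4 h (edgeR adjusted p = 4.9e-05) and -1.49 ± 0.20 for 24 h over 2 h (2.27e-08). DESeq2 called 24 h over 2 h (adjusted p = 0.00162) but not 24 h over 4 h (adjusted p = 0.0768).

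Other losses at 24 h with the largest changes were weak peaks. The peak chr3:43460440-43460840 had 7 and 5 reads at 24 h (1.39 and 1.14 CPM), against 17 and 22 reads in DMSO (4.84 and 6.25 CPM), a log2 change of -2.10 ± 0.44 (edgeR adjusted p = 0.000201). Its 2 h libraries overlapped DMSO, at 6.60 and 4.48 CPM. The peak chr4:116440206-116440606 had 1.59 and 2.50 CPM at 24 h, against 7.40 and 8.52 CPM in DMSO (log2 change -1.97 ± 0.36, edgeR adjusted p = 2.12e-05). The peak chr1:238799258-238799658, with its neighbour 750.6 kb away, had 2.18 and 1.36 CPM at 24 h, against 7.40 and 5.40 CPM in DMSO (log2 change -1.81 ± 0.39, edgeR adjusted p = 0.000366), and its 4 h libraries overlapped DMSO. In each of these peaks both 24 h libraries lay below both DMSO libraries, which the choice of named peaks required.

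The remaining 6 of the 10 largest losses at 24 h were chr2:216644579-216644979 (described at 2 h, log2 change -1.95), chr9:76463413-76463813 (-1.76), chr3:75046573-75046973 (-1.75), chr3:175398466-175398866 (-1.75), chr2:142468648-142469048 (-1.68) and chr16:7877762-7878162 (-1.63). Their edgeR adjusted p ran between 1.93e-06 and 0.000826. DESeq2 called the first (adjusted p = 0.0206) and the chromosome 9 peak (0.0485). Each of the calls on chromosomes 9 and 3 was lost without DMSO B, and the chromosome 16 call without DMSO A, with edgeR adjusted p of up to 0.0923. The chromosome 3 peak at 75046573 had dropped by 2 h, with 2.48 and 1.92 CPM, against 5.41 and 6.82 CPM in DMSO, and had 1.78 and 1.82 CPM at 24 h.

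Losses were also called at strong isolated peaks, where the called changes were smaller. Standard errors were smaller there too, so smaller changes could be called (SE 0.09 at the chromosome 17 peak below, against 0.44 at chr3:43460440-43460840). Whether weak isolated peaks lost more than strong ones was not tested. In the highest class 13 peaks were lower and 3 higher at 24 h. The peak chr17:64187686-64188086, named after its values were seen, had 93.1 and 91.2 CPM in DMSO, 86.7 and 86.6 CPM at 2 h, 76.6 and 81.6 CPM at 4 h, and 69.5 and 65.3 CPM at 24 h. It fell at 24 h by 0.45 on the log2 scale against DMSO (SE 0.09, edgeR adjusted p = 7.86e-05, DESeq2 adjusted p = 0.0336). Against DMSO it was not called at 2 h (edgeR adjusted p = 0.783) or at 4 h (edgeR adjusted p = 0.229). The peak chr4:190200613-190201013, likewise named afterwards and just below that class with a mean of 29.8 CPM, had 24.6 and 20.2 CPM at 24 h, against 43.0 and 34.9 CPM in DMSO (log2 change -0.79 ± 0.14, edgeR adjusted p = 6.95e-06, DESeq2 adjusted p = 0.0229).

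Of the gains at 24 h, the largest were at peaks with few reads in DMSO. The peak chr7:14801108-14801508 had 35 and 25 reads at 24 h (6.93 and 5.69 CPM), against 3 and 7 reads in DMSO (0.854 and 1.99 CPM), a log2 change of 2.14 ± 0.43 (edgeR adjusted p = 0.000124). The peak chr4:158310149-158310549 had 6.14 and 6.83 CPM at 24 h, against 1.71 and 1.99 CPM in DMSO (log2 change 1.79 ± 0.39, edgeR adjusted p = 0.000544). Its libraries at 2 h and 4 h, at 2.56 to 4.22 CPM, lay between those groups. The peak chr2:182037935-182038335 was stronger, with 22.6 and 20.2 CPM at 24 h, against 9.68 and 11.9 CPM in DMSO (log2 change 0.99 ± 0.20, edgeR adjusted p = 8.03e-05). In all 3 peaks the 24 h and DMSO libraries did not overlap, which the choice of named peaks required.

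The other 7 of the 10 largest gains at 24 h had log2 changes between 0.94 and 1.32, and each of them lost the call without some single library, with edgeR adjusted p of up to 0.542. These 7 were chr5:83820849-83821249, chr6:127113847-127114247, chr12:26682106-26682506, chr3:89620607-89621007, chr21:15973288-15973688, chr18:7231015-7231415 and chr7:147109169-147109569. The 3 gains of the paragraph before kept the call without any one library. The one gain that DESeq2 called was at a strong peak. The peak chr2:107502887-107503287, 301.7 kb from its neighbour, had 61.2 and 50.002 CPM in DMSO, 60.3 and 63.6 CPM at 2 h, 60.5 and 63.5 CPM at 4 h, and 79.6 and 81.4 CPM at 24 h. Only the 24 h libraries stood apart. It rose at 24 h by a log2 change of 0.53 ± 0.10 (edgeR adjusted p = 1.32e-05, DESeq2 adjusted p = 0.0229).

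**Figure D5:**
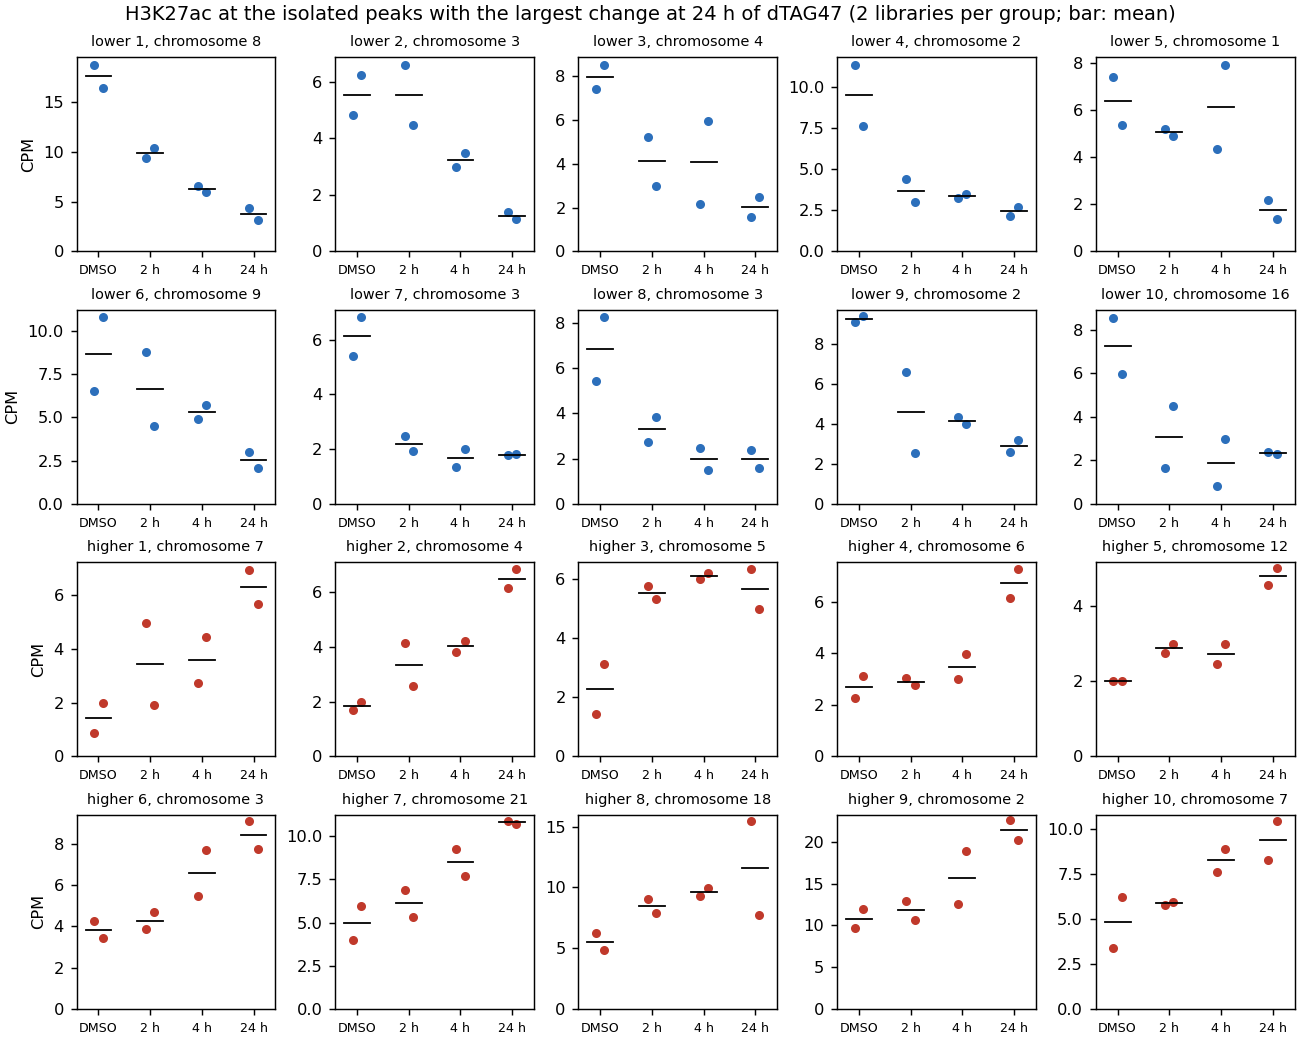
CPM in each of the 8 libraries (points) and group means (bars) for the 10 largest losses (blue) and the 10 largest gains (red) called at 24 h, ordered by log2 change from -2.20 to -1.63 and from 2.14 to 0.94. The peaks were chosen so that the pair of 24 h points and the pair of DMSO points do not overlap.

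The nearest neighbours of the changed peaks were mostly not called, as held for tested peaks in general. Of the 84 isolated peaks lower at 24 h, the nearest other peak was called lower in 4, where 4.88% of all tested peaks were, with a median log2 change of -0.10 at these neighbours. Of the 18 higher peaks the nearest was called higher in 1, where 3.46% of all tested peaks were, with a median of 0.14. At 4 h, the nearest neighbour was called lower for 1 of the 36 losses, where 1.67% of all tested peaks were. The nearest peak was itself isolated for 35 of the 84. The median distance was 151 kb for the losses at 24 h, close to that of all isolated peaks.

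Changes between the times of dTAG47 were tested directly. For 24 h over 2 h, H3K27ac was lower at 19 isolated peaks and higher at 20, beside 2.49% and 1.69% of all tested peaks. For 24 h over 4 h it was lower at 4 and higher at 4, beside 0.68% and 0.438%. For 4 h over 2 h edgeR called 0 in either direction among isolated peaks and 0.0% of all tested peaks, while 64 were lower and 58 higher when p under 0.05 was left unadjusted (3.62% and 3.3% of all tested peaks) and 0 by DESeq2. DESeq2 called 1 lower and 0 higher for 24 h over 2 h, beside 0.196% and 0.0334%, and 0 lower and 0 higher for 24 h over 4 h, beside 0.0114% and 0.0%. At an unadjusted p under 0.05 the counts for 24 h over 4 h were 81 lower and 130 higher, beside 7.1% and 6.36%, and those for 24 h over 2 h were 97 lower and 154 higher, beside 9.18% and 8.39%. Scaling that follows abundance gave 23 lower and 13 higher for 24 h over 2 h. For 24 h over 2 h, 9 and 6 losses and 6 and 4 gains were called without 24 h library A or B, and 8 and 9 losses and 11 and 3 gains without 2 h library A or B. For 24 h over 4 h, 2 and 1 losses and 2 and 2 gains were called without 24 h library A or B, and 4 and 2 losses and 1 and 0 gains without 4 h library A or B.

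Of the 4 peaks that were higher at 24 h than at 4 h, 3 were not called against DMSO at 24 h, and the other was the strong chromosome 2 peak above. The peak chr17:50961292-50961692 had 3.42 and 5.11 CPM in DMSO, 4.95 and 4.69 CPM at 2 h, 1.64 and 1.24 CPM at 4 h, and 6.14 and 5.91 CPM at 24 h. Its lowest libraries were those at 4 h. There edgeR called no change over DMSO (log2 change -1.56 ± 0.48, adjusted p = 0.054) or over 2 h (-1.73 ± 0.45, adjusted p = 0.43). The log2 change was 2.05 ± 0.41 for 24 h over 4 h (edgeR adjusted p = 0.00133), and 0.50 for 24 h over DMSO (adjusted p = 0.4). Its 4 h libraries hold 6 and 5 reads, and without 4 h library B the call was lost (adjusted p = 0.0865). The peak chr3:177863592-177863992 had 4.75 and 7.96 CPM at 24 h, against 2.73 and 2.48 CPM at 4 h (log2 change 1.26 ± 0.36, edgeR adjusted p = 0.0494). The peak chr14:55878204-55878604, at 31.5 and 26.2 CPM at 24 h, against 19.6 CPM in both 4 h libraries, differed by 0.56 ± 0.15 (edgeR adjusted p = 0.0298).

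Other peaks were higher at 24 h than at 2 h. The peak chr16:53980523-53980923 had 4.84 and 5.11 CPM in DMSO, 2.20 and 2.13 CPM at 2 h, 3.0 and 3.47 CPM at 4 h, and 6.14 and 7.51 CPM at 24 h. The 2 h libraries were the lowest and the 24 h libraries the highest. The log2 change was 1.63 ± 0.35 for 24 h over 2 h (edgeR adjusted p = 0.0012), while that of 2 h over DMSO, -1.19 ± 0.41, did not pass (adjusted p = 0.141). Without 2 h library B the adjusted p for 24 h over 2 h was 0.0555. The peak chr11:133652158-133652558 had 3.96 and 5.46 CPM at 24 h, against 2.48 and 1.07 CPM at 2 h (log2 change 1.45 ± 0.42, edgeR adjusted p = 0.0251). The peak chr8:43822250-43822650 rested on 15 and 11 reads at 24 h, against 4 and 2 reads at 2 h (log2 change 1.89 ± 0.59, edgeR adjusted p = 0.0439). All 5 named gains over 2 h lost the call without some single library (adjusted p of up to 0.435), as did all 4 over 4 h (up to 0.493). The peaks chr6:23027272-23027672 and chr6:127113847-127114247 had log2 changes of 1.29 and 1.2 for 24 h over 2 h (edgeR adjusted p = 0.00809 and 0.0183). Under scaling that follows abundance, the calls for 24 h over 2 h at chr11:133652158-133652558, chr8:43822250-43822650 and chr6:127113847-127114247 were lost and the others kept. That scaling also lost the call at chr3:177863592-177863992 for 24 h over 4 h. For 24 h over 2 h, the lowest of 4 classes by level had median log2 changes of 0.146 (isolated) and 0.12 (other peaks). They were 0.013 and 0.004 under that scaling.

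Besides the late loss on chromosome 1 and the peak at chr1:238799258-238799658, 2 peaks were lower at 24 h than at 4 h. The peak chr12:113478629-113479029 had 2.18 and 2.73 CPM at 24 h, against 5.73 and 6.95 CPM at 4 h (log2 change -1.37 ± 0.36, edgeR adjusted p = 0.0228). The peak chr11:11301799-11302199 had 35.9 and 34.9 CPM in DMSO, 38.5 and 38.8 CPM at 2 h, 41.2 and 33.5 CPM at 4 h, and 26.3 and 24.6 CPM at 24 h. Its first 3 groups lay within 33.5 and 41.2 CPM, and the 24 h libraries below. The log2 change was -0.54 ± 0.13 for 24 h over 4 h (edgeR adjusted p = 0.0129) and -0.47 ± 0.14 for 24 h over DMSO (0.0137), and DESeq2 called neither (adjusted p = 0.822 and 0.357). Of the 4 losses for 24 h over 4 h, 3 lost the call without some single library (edgeR adjusted p of up to 0.339), and that at chr1:224970135-224970535 kept it.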

How the data were processed

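H3K27ac ChIP-seq was measured in 8 libraries of Rh30 cells. The authors deposited raw read counts per peak over one common peak set, per the file headers. Per the submitters' processing notes, the tools were DiffBind, DESeq2, MACS2, Bowtie2 and Trimmomatic 0.32, and the builds were hg19 and dm3. Their roles and order, duplicate removal and any use of a spike-in are not given in the sources used here. Coordinates are printed as deposited, and a start may be off by 1 base.

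Counts were filtered with edgeR 4.0.16 filterByExpr (minimum count 10, minimum total 15), scaled by TMM and tested with the quasi-likelihood test in R 4.3.3, with all 4 groups in one fit. DESeq2 1.42.0 was an alternative. A peak for which DESeq2 gave no adjusted p was not counted. Scripts were tested on simulated data. Column names end in A or B and labels in replicate numbers, so libraries are known by group only. Of the value columns, 0 had no group.

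Members and lists were chosen with earlier results of these data known. Named peaks are up to 10 called losses and 10 called gains per DMSO comparison whose dTAG47 and DMSO libraries do not overlap, by size of change, the 5 strongest, the 5 farthest from a neighbour, the 2 on each side of the limit, and up to 5 per direction between times. Other scalings, other distance limits, no filter, 2-group fits and leaving out each library were tried.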

Additional observations from a re-analysis of the deposited data

Results flagged for a closer look

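The change against DMSO differed between times, by edgeR's direct test of the difference, at 39 isolated peaks for 24 h over 2 h and at 8 for 24 h over 4 h. Of the 39, 19 were lower and 20 higher at 24 h (0.984% and 1.04% of the tested isolated peaks), beside 2.49% and 1.69% of all tested peaks. Of the 8, 4 were lower and 4 higher at 24 h (0.207% each), beside 0.68% and 0.438%. These peaks were picked out because 2 times of dTAG47 gave different changes against the same DMSO libraries.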

How the results depend on the processing

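The count columns carry letters A and B, which nothing ties to the labels' replicate numbers. Libraries with the same letter did not deviate together (correlations of their deviations of -0.033 to 0.054 over the 6 pairs of groups). A fit with the letter as a replicate block, chosen after seeing the data, gave 85 losses and 20 gains for 24 h over DMSO, 36 losses and 3 gains for 4 h over DMSO, 13 losses and 1 gain for 2 h over DMSO, and kept each of the 62 called changes of named peaks. DESeq2's size factors, total counts, TMM factors from the other peaks and no filter kept each count of called isolated peaks within 1.5 times. With offsets that follow abundance, gains were 2 at 2 h over DMSO and 13 for 24 h over 2 h, and with a fit of the 2 groups compared the gains at 2 h were 0. DESeq2 called 0 losses and 0 gains at 2 h, 2 and 0 at 4 h, 6 and 1 at 24 h, 1 and 0 for 24 h over 2 h, and 0 and 0 for 24 h over 4 h. Leaving out 1 library gave 43 to 55 losses and 8 to 13 gains at 24 h, 11 to 18 and 0 to 2 at 4 h, and 2 to 4 and 0 to 1 at 2 h, all over DMSO. For 24 h over 2 h it gave 6 to 9 losses and 3 to 11 gains, and for 24 h over 4 h 1 to 4 and 0 to 2. The cause was not tested, though such fits hold fewer libraries. At the main limit, without the 3 unstable peaks, the isolated peaks held 3.41% of reads. With a limit of 50 kb (5089 peaks) the gains at 24 h were 1.51% of tested peaks, the median level was 9.56 CPM and the share of reads 11.0%. With a limit of 200 kb (662 peaks) the gains were 0.0% at 2 h and at 4 h and 1.84% for 24 h over 2 h, the median level was 7.03 CPM and the share of reads 0.968%. Of 62 called changes of named peaks, 9 passed under every alternative that gave a value and 0 reversed. DESeq2 kept 5 of the 22 it gave an adjusted p, and the call was lost by 5 with offsets that follow abundance, by 3 in the fit of 2 groups and by 1 with TMM factors from the other peaks. With 2 libraries per group and a median of 29 to 40 reads per isolated peak and library, small changes of weak peaks could not be detected.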
